A study of Mus musculus with 4 samples.

Results

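Class 3 semaphorins and their receptors were examined in single cells of mouse bone and bone marrow. The 10 genes were the secreted ligands Sema3a, Sema3b, Sema3c, Sema3d, Sema3e and Sema3f, the neuropilin co-receptors Nrp1 and Nrp2, and the plexin receptors Plxnd1 and Plxna4, chosen by name from 32285 genes in the matrices, and all 10 were present. Their levels were followed as raw unique molecular identifiers (UMIs) across fibroblast, stromal, osteoblast, tendon and cartilage groups of cells and between a young and an old library. The genes were picked because these levels were known to differ, so the levels and the age ratios stand here as descriptions without a test. The comparison of CD24+ with CD24- cells did not enter the choice and was tested. Over the 5 groups together it is not independent of the choice, since the share of CD24+ cells differed between groups.

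The cells came from 1 young mouse of 6 months and 1 old mouse of 24 months, both untreated and both of the INK-ATTAC line, which carries an inducible caspase 8 under the p16Ink4a promoter. Cells of digested bone and marrow were depleted of lineage-positive blood cells, sorted as live and CD45-, and profiled by CITE-seq, which reads an oligonucleotide-tagged CD24 antibody together with the mRNA of the same cell. With 1 library per age, age, animal and library cannot be told apart. The sort also sets which cells were present.

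Class 3 semaphorins are secreted guidance proteins, known first for turning growing axons away. Most of them bind a neuropilin, which holds the ligand while a plexin carries the signal into the cell, whereas Sema3e can bind Plxnd1 directly. Neuropilins also serve as co-receptors of vascular endothelial growth factor (VEGF). In bone, Sema3a is known as a factor that protects bone mass, acting on osteoclasts and osteoblasts through Nrp1.

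The promoters of 4 members are shown because the genes form the pairs that the results turn on, Sema3c with Sema3e, both highest in the fibroblast group, and Nrp1 with Plxnd1, both highest in the stromal group. RefSeq windows of 300 bases, 250 before and 50 after the annotated start, existed for 7 of the 10 members (build GRCm38.p6, 5′ to 3′ on the strand of the gene). Capitals mark GC boxes, written GGGCGG and read on both strands.

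Sema3c, chr5:17574566-17574865, plus strand: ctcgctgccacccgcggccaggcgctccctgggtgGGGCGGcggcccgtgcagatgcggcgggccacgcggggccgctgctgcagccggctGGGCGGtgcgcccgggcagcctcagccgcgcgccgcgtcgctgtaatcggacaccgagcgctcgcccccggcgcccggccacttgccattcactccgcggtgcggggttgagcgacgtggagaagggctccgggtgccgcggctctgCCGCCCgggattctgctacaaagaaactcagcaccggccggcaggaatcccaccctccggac

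Sema3e, chr5:14025026-14025325, plus strand: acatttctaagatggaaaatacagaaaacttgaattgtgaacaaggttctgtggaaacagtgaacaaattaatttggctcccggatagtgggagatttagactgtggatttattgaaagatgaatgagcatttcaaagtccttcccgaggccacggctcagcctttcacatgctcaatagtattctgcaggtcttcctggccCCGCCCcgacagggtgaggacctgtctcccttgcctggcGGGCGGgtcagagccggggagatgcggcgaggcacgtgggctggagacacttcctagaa

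Nrp1, chr8:128358823-128359122, plus strand: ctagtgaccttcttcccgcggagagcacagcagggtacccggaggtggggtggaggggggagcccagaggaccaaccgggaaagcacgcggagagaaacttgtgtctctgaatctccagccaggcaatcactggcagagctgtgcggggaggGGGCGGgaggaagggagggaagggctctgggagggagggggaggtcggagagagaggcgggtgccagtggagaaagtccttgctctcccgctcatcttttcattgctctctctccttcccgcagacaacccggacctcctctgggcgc

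Plxnd1, chr6:115994956-115995255, minus strand: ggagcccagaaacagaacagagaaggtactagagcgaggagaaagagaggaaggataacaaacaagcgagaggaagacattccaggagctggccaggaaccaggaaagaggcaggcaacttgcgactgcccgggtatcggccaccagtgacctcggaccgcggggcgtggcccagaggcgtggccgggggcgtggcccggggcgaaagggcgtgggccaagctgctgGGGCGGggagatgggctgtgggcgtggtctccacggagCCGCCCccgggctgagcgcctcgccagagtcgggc

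The Sema3c window held 3 GC boxes with 75.7% G and C, the Sema3e window 2 with 50.7%, the Nrp1 window 1 with 64.0% and the Plxnd1 window 2 with 67.0%. The Nrp2 window (chr1:62703067-62703366, plus strand) had the most of the 7, with 5 GC boxes. A GC box was in 35.66% of the 32851 windows of all genes. A RUNX core (TGTGGT) occurred only in the Sema3a window of the 7, against 16.76% of all windows. That window (chr5:13396534-13396833, plus strand) lies well inside the gene, which spans 13124822 to 13603485. It therefore does not cover the first base of the gene. The Nrp1 and Plxnd1 windows printed above also lie inside their genes and miss the first base. That base is at 128358591 for Nrp1 (plus strand) and at 115995339 for Plxnd1 (minus strand). An EBF site (TCCC, any 2 bases, GGGA) was in none of the 7, against 0.9041% of all windows, and a TATA box (TATAAA) was in none, against 13.62%. These are matches of letters on either strand within these windows only. Neighbouring genes are part of the family's layout: Sema3d, Sema3a, Sema3e and Sema3c lie in this order on chromosome 5, from 12383161 to 17730268, and Sema3b and Sema3f on chromosome 9, from 107597674 to 107710475.

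The young library held 10063 and the old library 5607 barcodes with at least 200 genes and at most 20% mitochondrial UMIs, and the kept cells of the libraries shared 19 barcode sequences. The median young cell had 6385 UMIs and the median old cell 9711, so old cells were deeper. Each cell was placed in the group whose marker genes it expressed most, and no member was a marker. The 5 groups held 9576 of 15670 kept cells, with 2254 young and 951 old fibroblast cells, 2573 and 1544 stromal, 806 and 438 osteoblast, 495 and 253 tendon, and 209 and 53 cartilage cells. Every marker of the 5 lists had UMIs in its own group in both libraries. The summed osteoblast markers were higher in the old osteoblast group (39536 UMIs in each 1000000) than in the young one (23935), and neutrophil markers were higher in the old fibroblast group (228) than in the young one (28.2), and the part of either in the results was not tested. No cell fell in an endothelial group, and the 8 endothelial markers summed to at most 8.27 in each 1000000 UMIs of any of the 5 groups, with 4 of the 8 at 0 in the stromal group of each library.

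Ligands are given first. Levels are counts per 1000000 (CPM), the UMIs of a gene in each 1000000 UMIs of the group, with exact Poisson intervals of 95% that cover counting error only. The erythroid group serves as background, since red cell precursors should lack these genes and carry free RNA of the suspension. Every semaphorin was at 2.39 CPM or less there in both libraries. The neutrophil group, also of blood, was higher, with Nrp1 at 186 and 94.0 CPM (young and old), Nrp2 at 107 and 64.4, Plxnd1 at 42.2 and 18.3 and Sema3c at 0 and 18.9. Stromal markers summed to 14400 and 7684 CPM in the neutrophil group, against 1388 and 1040 in the erythroid group, and their part in these levels was not tested.

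Sema3c, a ligand known from heart and vessel development, was the fibroblast semaphorin. It stood at 255 CPM in the young fibroblast group (4917 UMIs, interval 248 to 263) and at 254 in the old one (3279 UMIs, 245 to 262). The tendon group followed at 79.0 and 52.3, then cartilage at 32.8 and 21.0, osteoblast at 10.0 and 2.74, and stroma at 2.96 and 1.19. The order was the same in both libraries, and all neighbours had separate intervals except osteoblast and stroma in the old library. In fibroblast cells thinned to 2000 UMIs, 31.0% of young and 28.8% of old cells had a Sema3c UMI, against 0.324% and 0.310% of erythroid cells (before thinning, 1264 of 2254 young and 558 of 951 old fibroblast cells).

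Sema3e, the ligand that can bind Plxnd1 without a neuropilin, was also highest in the fibroblast group, at 93.3 CPM in the young (interval 89.0 to 97.7) and 101 in the old library (95.2 to 106). No other of the 5 groups passed 21.4, the level of the young cartilage group. Of thinned fibroblast cells, 12.7% of young and 14.6% of old cells had a Sema3e UMI.

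Cells with one of the fibroblast ligands more often had the other. Among thinned young fibroblast cells with Sema3c, 22.3% (153 of 685) also had Sema3e, against 8.34% of those without Sema3c. The old library gave 24.4% (66 of 271) against 10.6%. Both pairs of exact intervals were separate (19.3 to 25.6 against 7.00 to 9.84, and 19.4 to 29.9 against 8.37 to 13.2). These are cells of 1 animal each, so the shares describe the libraries.

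Of the fibroblast marker list, only Pi16 was set beside the ligands. It was more frequent in cells with Sema3c, with separate intervals in each library, while for Sema3e the intervals overlapped. Pi16, a marker of adventitial-type fibroblasts, was found in 36.5% of young cells with Sema3c and 18.6% of those without, and in 45.0% and 22.2% of old cells. In cells with and without Sema3e it was found in 24.6% and 24.1% (young) and 36.5% and 27.5% (old). In CPM, fibroblast cells with a Pi16 UMI had Sema3c at 404 (young) and 367 (old), and those without one had 174 and 160. Pi16 is itself 1 of the markers that set the fibroblast group.

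Scg3 and Islr2 were chosen because earlier results of these data had placed them with Sema3e in a fibroblast subset. Their shares with Sema3e are descriptions only. Scg3 encodes a granin of secretory granules. It was found in 17.1% of young fibroblast cells with Sema3e and 8.09% of those without, and in 20.4% and 8.83% of old cells. With and without Sema3c the shares were 10.4% and 8.73% (young) and 9.59% and 10.9% (old), with overlapping intervals. Islr2, which encodes a membrane protein with leucine-rich repeats, was found in 13.9% of young cells with Sema3e against 7.47% without, and in 12.1% with Sema3c against 6.57% without. In the old library the Sema3e shares were 13.1% and 8.08%, with overlapping intervals, and the Sema3c shares 13.3% and 7.01%, with separate ones.

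Sema3d was the ligand of the skeletal groups. The cartilage group had 156 CPM in the young (interval 140 to 174) and 146 in the old library (122 to 173). The tendon group had 53.6 and 43.2, and the osteoblast group 44.4 and 92.4, with overlapping intervals of tendon and osteoblast in the young library and a higher osteoblast level, with separate intervals, in the old one. Osteoblast markers were also high in the cartilage group, where they summed to 10256 and 16243 CPM beside 13428 and 11751 of its own markers, and their part in its levels was not tested. Fibroblasts had 3.79 and 6.19 and stroma 0.740 and 0.448. In thinned cartilage cells 18.8% (37 of 197) of young and 16.3% (8 of 49) of old cells had a Sema3d UMI.

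Sema3b was spread over fibroblasts (22 CPM young, 22.9 old), tendon (16.4 and 17.3) and osteoblasts (15.4 and 45.3), and lower in stroma (3.23 and 5.53) and cartilage (3.32 and 2.21). In the young library the intervals of fibroblasts and tendon, and of tendon and osteoblasts, overlapped. In the old library osteoblasts were 1.98 times as high as fibroblasts with separate intervals (40.4 to 50.6 against 20.4 to 25.7).

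Sema3a, the ligand best known in bone, was low throughout. Of its UMIs in kept cells, 50.7% lay in the 5 groups, and cells left unassigned to any group had 12.2 and 5.51 CPM. Among the 5 groups Sema3a reached 11.5 and 5.23 CPM in tendon, 9.77 and 5.18 in fibroblasts and 8.24 and 10.1 in osteoblasts. In the young library neighbours in this order had overlapping intervals. In the old library osteoblasts came first, with an interval (7.88 to 12.8) that overlapped that of tendon but not that of fibroblasts (4.02 to 6.58). Stroma had 4 UMIs in 2573 young and 2 in 1544 old cells. Cartilage had 0 UMIs in 209 young cells, which allows up to 1.42 CPM, and 3 UMIs from 1 cell in the old library. Of the 26 Sema3a UMIs in 103 old pericyte cells, 19 came from 1 cell.

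Sema3f was the rarest ligand of the 5 groups, which held 54.5% of its UMIs. It stood at 7.01 and 6.58 CPM in fibroblasts, 3.99 and 4.68 in tendon and below 2.27 in the other groups of the 5. Pericytes, the mural cells of small vessels, had more, at 31.8 (15 UMIs in 79 young cells, interval 17.8 to 52.4) and 26.7 (28 UMIs in 103 old cells, 17.7 to 38.5). Sema3g, the class 3 member not among the 10, had 25 UMIs in all kept cells together.

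**Figure D1:**
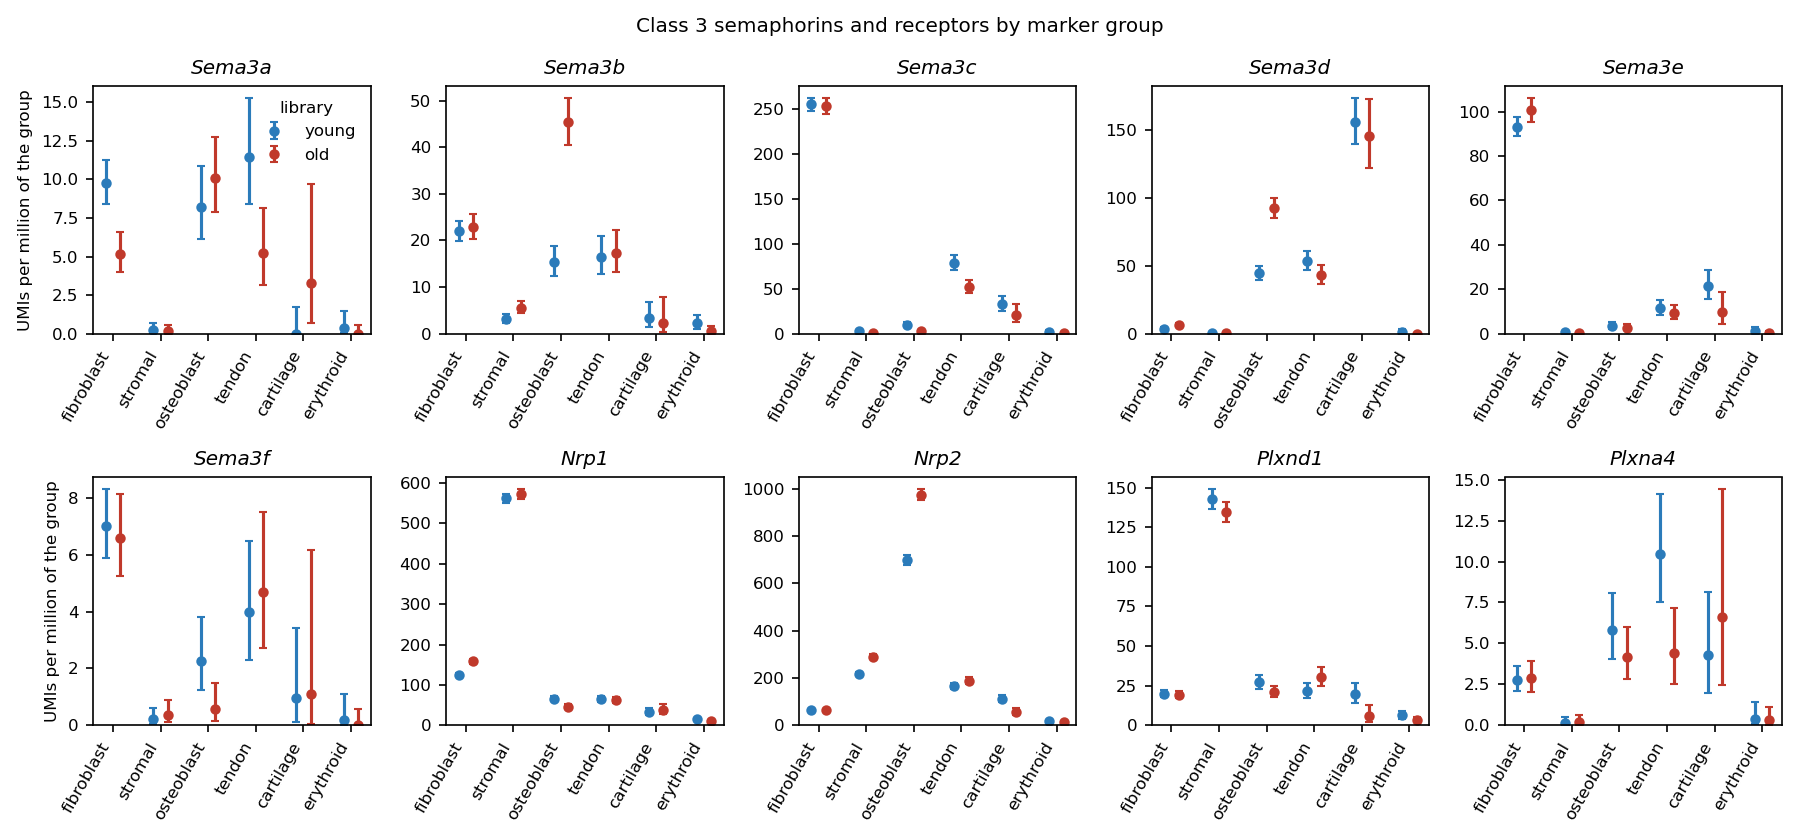
Level of each member in CPM (vertical axis, linear from 0, its own scale in each panel) in the 5 marker groups and the erythroid group, in the young (blue) and old (red) library; bars are exact 95% Poisson intervals. Sema3c and Sema3e peak in fibroblasts, Sema3d in cartilage, Nrp1 and Plxnd1 in stroma and Nrp2 in osteoblasts in both libraries.

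The receptors had another layout. Nrp1, a co-receptor for Sema3a and for VEGF, was highest in the stromal group, the Lepr and Cxcl12 expressing cells that support blood formation. It stood there at 562 CPM in the young (interval 550 to 574) and 572 in the old library (559 to 585). Fibroblasts had 123 and 158, osteoblasts 65.9 and 46.2, tendon 65.0 and 61.9, and cartilage 33.2 and 38.6. Osteoblasts and tendon had overlapping intervals in the young library. The erythroid background was 14.6 and 11.3. In thinned cells 64.5% of young and 63.5% of old stromal cells had a Nrp1 UMI, against 2.27% and 2.17% of erythroid cells.

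Plxnd1, the plexin that can receive Sema3e and is best known from endothelium, shared the stromal peak at 143 (interval 137 to 149) and 135 CPM (129 to 141). The other 4 groups lay between 5.52 and 30.3. Pericytes had 112 and 70.5. Within the stroma, Plxnd1 was found as often in thinned cells with Nrp1 (24.6% young, 25.1% old) as in those without it (24.1% and 23.3%, overlapping intervals).

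The stromal group was split into 3 parts by the share of a cell's UMIs from Adipoq, which encodes adiponectin, with limits set over both libraries together. The lowest, middle and highest part held 1060, 898 and 615 young and 313, 474 and 757 old cells, so old cells lay more in the highest part. From the lowest to the highest part, Nrp1 stood at 599, 559 and 507 CPM in the young and at 551, 568 and 581 in the old library. The young lowest and highest parts had separate intervals (579 to 619 and 484 to 530), and the old ones overlapped. Plxnd1 stood at 152, 139 and 133, and at 147, 132 and 132, with overlapping intervals in each library. Nrp2 stood at 242, 208 and 185, and at 351, 311 and 260, with separate intervals of the lowest and highest part in each library.

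Nrp2, the neuropilin bound by Sema3f and by VEGF-C, was the osteoblast receptor. The osteoblast group had 699 CPM in the young (4323 UMIs, interval 678 to 720) and 974.7 in the old library (6753 UMIs, 952 to 998). Stroma had 216 and 291, tendon 165 and 189, cartilage 112 and 56.3, and fibroblasts 63.3 and 63.0, against an erythroid background of 16.4 and 12.2. Of thinned osteoblast cells 55.4% and 64.0% had a Nrp2 UMI. Thinned old osteoblast cells with Nrp2 had Sema3b in 7.04% and those without in 1.32%, and the young shares were 3.10% and 0.888%, with overlapping intervals in each library.

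Plxna4, a plexin A partner of neuropilins, was found at 10.5 and 4.40 CPM in tendon, 5.82 and 4.19 in osteoblasts, 4.27 and 6.62 in cartilage, 2.75 and 2.86 in fibroblasts and at most 0.224 in stroma. Its order among the first 3 was within the counting intervals in both libraries.

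Genes with the most similar pattern were sought among 12728 genes as Pearson's r of log2(CPM + 5) over 20 sums, 10 groups in each library. The sums of a group share their library and marker rule, so r is a description. For Nrp1 these were Igfbp4 (0.96), Steap4 (0.96) and Lamb1 (0.96), and for Plxnd1 they were Nectin2 (0.97), Plcl1 (0.95) and Pawr (0.95). For Nrp2 they were Adam12 (0.94), Lrp4 (0.94) and Tmem59 (0.94). For Sema3c they were Medag (0.94), Rab7b (0.94) and Tnxb (0.94), and for Sema3e Nova1 (0.95), Pthlh (0.93) and 1700019D03Rik (0.93). For Sema3d they were Cemip (0.95), Tnfrsf11b (0.94), the gene of osteoprotegerin, and Ngef (0.94), and for Sema3f Filip1 (0.96), Dmd (0.95) and Ntf3 (0.94). Sema3b (Shc2, 0.91), Plxna4 (Syn3, 0.89) and Sema3a (Itgb8, 0.80) had weaker nearest genes.

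Among other genes of the pathway, 5 of 8 remaining class 3 and plexin genes, 6 of 13 semaphorins of other classes, 13 of 19 co-receptors and mediators and 5 of 8 VEGF genes exceeded 10 CPM in at least 1 of the 5 groups. Kdr, Flt1 and Flt4, the VEGF receptors, had 53, 52 and 33 UMIs in all kept cells.

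The next comparison was between the ages, group by group, as the log2 ratio of CPM in the old over the young library, with exact conditional intervals for counting error. A ratio past 2-fold with at least 20 UMIs in both sums together is counted as called. There is no test, and since the members were chosen with these ratios known nothing is read from the counts. Of the members, 0 of 10 were called in fibroblasts (4.51% of all genes there), 1 of 5 in stroma (4.7%), 3 of 9 in osteoblasts (7.02%), 2 of 10 in tendon (4.25%) and 2 of 6 in cartilage (11.8%). The median log2 ratio of all genes with 20 UMIs was 0.02, 0.03, -0.16, -0.01 and -0.10 in these groups.

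In fibroblasts the main ligands hardly differed. Sema3c had a log2 ratio of -0.01 (interval -0.07 to 0.05) and Sema3e one of 0.11 (0.01 to 0.21). Sema3a was lower in the old library by a log2 ratio of -0.91 (-1.34 to -0.50; 188 and 67 UMIs), and Nrp1 higher by 0.36 (0.27 to 0.45).

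Osteoblasts held the largest ligand ratios. Sema3b went from 95 UMIs in 806 young cells to 314 in 438 old cells, a log2 ratio of 1.56 (interval 1.23 to 1.91). Sema3d went from 275 to 640 UMIs, a log2 ratio of 1.06 (0.85 to 1.26). Sema3c, at low level, went from 62 to 19 UMIs, a log2 ratio of -1.87 (-2.69 to -1.11). When each cell was thinned to 2000 UMIs, so that deep cells no longer weighed more, the ratio of Sema3b was 1.30 and that of Sema3c -2.32, but that of Sema3d was 0.34, within 2-fold.

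The summed osteoblast markers were higher in the old osteoblast group, as given above. The group was split into 3 parts by the share of a cell's UMIs from Bglap and Bglap2, the osteocalcin genes, with limits set over both libraries together, a step added after the ratios had been seen. The parts held 261, 285 and 260 young and 154, 129 and 155 old cells. From the lowest to the highest part, Sema3b stood at 9.22, 14.2 and 22.4 CPM in the young and at 25.6, 46.7 and 56.6 in the old library. Sema3d stood at 50.7, 39.4 and 43.8 in the young and at 78.2, 66.8 and 116 in the old library. Both were higher in the old library in each part, with separate intervals in every pair. Sema3b had separate intervals between the lowest and the highest part in both libraries. These intervals leave out the spread between cells. The parts kept all UMIs, without the thinning that brought the Sema3d ratio within 2-fold. The part of the osteocalcin or marker level in the age ratios was not tested.

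Among the osteoblast receptors, Nrp2 had a log2 ratio of 0.48 (0.42 to 0.54) and Nrp1 one of -0.51 (-0.73 to -0.30). Nrp2 in the 3 parts stood at 661, 524 and 920 CPM in the young and at 883, 990 and 1021 in the old library.

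**Figure D2:**
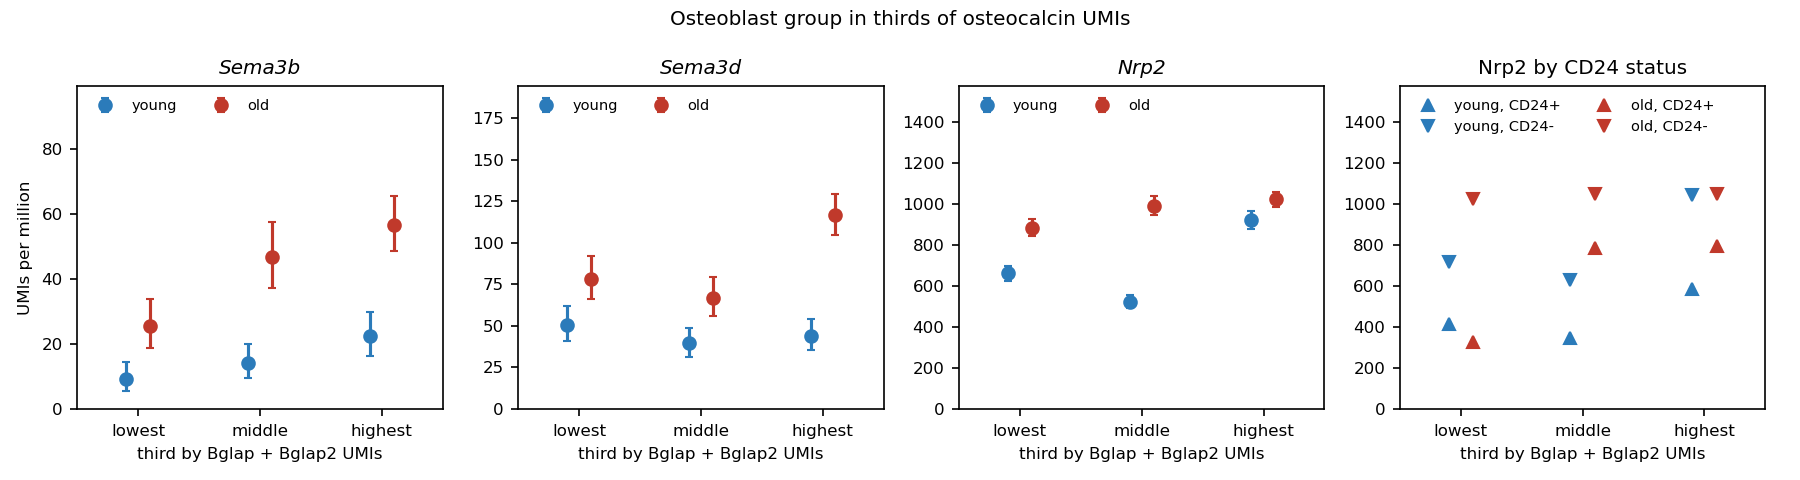
Sema3b, Sema3d and Nrp2 in CPM (vertical axis, linear from 0) in 3 parts of the osteoblast group ordered by the share of osteocalcin UMIs, in the young (blue) and old (red) library, with exact 95% Poisson intervals; the last panel splits Nrp2 by CD24 status, upward triangles for CD24+ and downward for CD24- cells. The old library is higher for all 3 genes in every part, and CD24+ cells are below CD24- cells of the same library in every part.

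In stroma, Nrp2 was higher in the old library (log2 ratio 0.43, interval 0.36 to 0.50), while Nrp1 (0.03, -0.02 to 0.07) and Plxnd1 (-0.08, -0.18 to 0.01) differed little. Sema3c, with 44 young and 16 old UMIs there, had a log2 ratio of -1.31 (-2.23 to -0.45), which became 0.24 when predicted doublets were removed. In tendon, Sema3a (46 and 19 UMIs) had -1.13 (-1.99 to -0.33) and Plxna4 (42 and 16 UMIs) -1.25 (-2.18 to -0.39). In cartilage, with 53 old cells and, as given above, more osteoblast marker UMIs in the old library, Plxnd1 (41 and 5 UMIs) had -1.82 (-3.52 to -0.48) and Sema3e (45 and 9 UMIs) -1.10 (-2.32 to -0.05). Nrp2 lay just inside the limit in cartilage, at -0.999 (237 and 51 UMIs), and the called member nearest to the limit was Sema3d in osteoblasts, at 1.06.

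**Figure D3:**
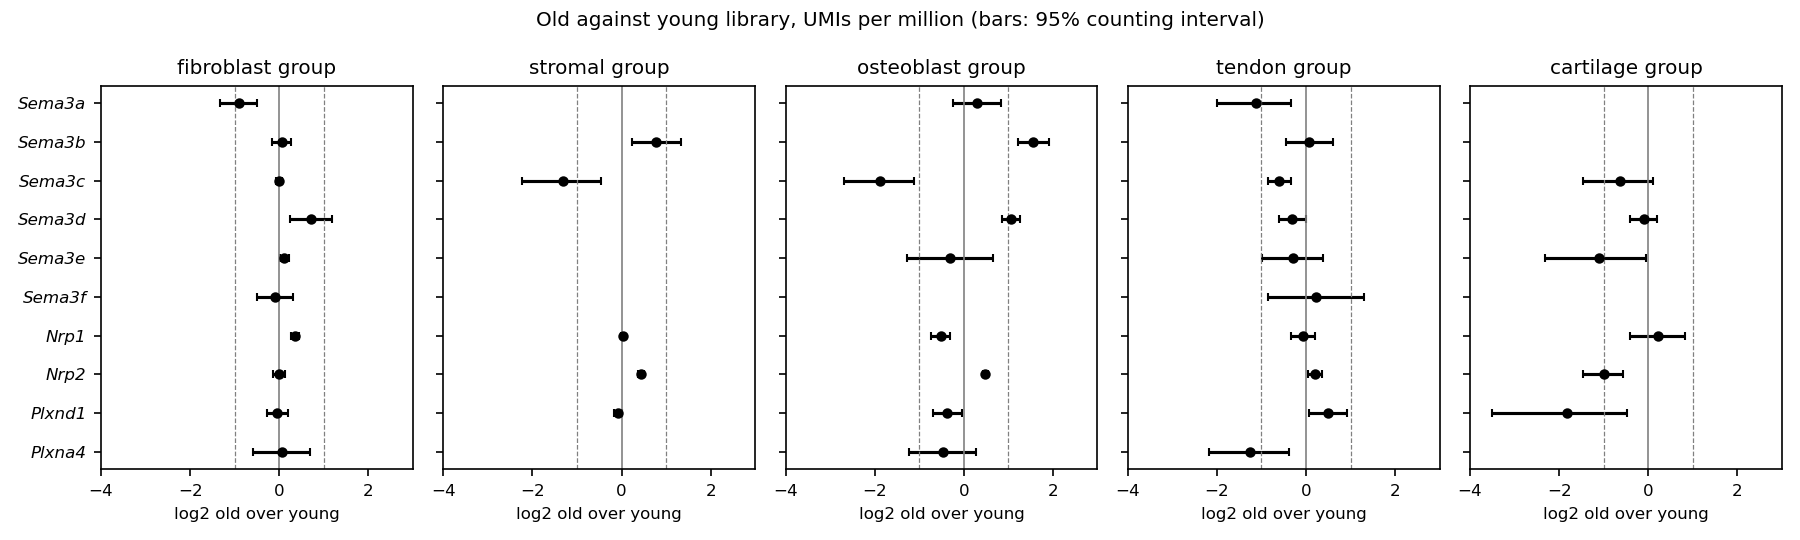
Log2 ratio of CPM, old over young library (horizontal axis), for members with at least 20 UMIs in each marker group; bars are exact 95% counting intervals and dashed lines mark 2-fold. Fibroblast members all sit within 2-fold, while Sema3b and Sema3d in osteoblasts sit to the right and Sema3c to the left.

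The last comparison was between CD24+ and CD24- cells. CD24 is a surface glycoprotein read here by its antibody. Cells were called CD24+ above an antibody count of 312 (young library) or 396 (old library), which gave 464 CD24+ and 5873 CD24- cells in the 5 young groups and 167 and 3072 in the old. UMIs were summed per mouse and status and tested with edgeR's quasi-likelihood test with the mouse as a block, 2 mice, 1 residual degree of freedom, Benjamini-Hochberg adjustment over all genes. The share of CD24+ cells differed between groups. It was 34.9% and 28.3% in cartilage, 21.5% and 15.98% in osteoblasts, 7.27% and 7.51% in tendon, 3.64% and 3.15% in fibroblasts and 3.89% and 2.14% in stroma (young and old). Among blood cells it was 90.7% and 90.0% in the erythroid and 99.0% and 91.1% in the B-lineage group. What blood cells added to the antibody counts of other groups was not tested.

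Over the 5 groups together, 5 of the 10 members passed an adjusted p of 0.05, where 14% of 14746 genes did, with 7.28% higher and 6.68% lower in CD24+ cells. The members were chosen with their group levels known and the CD24+ share differed between groups, so nothing is read from this count. Sema3d was higher, at 15.8 in CD24- and 49.8 in CD24+ cells of the young mouse and at 24.8 and 55.6 CPM in the old one (log2 change 1.505, SE 0.13, edgeR adjusted p = 3.06e-08). Nrp2 was higher, at 201 and 262 in the young and 320 and 360 in the old mouse (0.36, SE 0.10, edgeR adjusted p = 0.0128). Sema3d peaked in cartilage and Nrp2 in osteoblasts, the groups of these 5 with the highest shares of CD24+ cells. The part of these shares in the pooled changes was not tested.

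The 3 members lower in CD24+ cells were Nrp1, Sema3c and Plxnd1. Nrp1 stood at 259 in CD24- and 147 in CD24+ cells of the young mouse and at 283 and 118 CPM in the old one (log2 change -0.95, SE 0.11, edgeR adjusted p = 1.50e-06). Sema3c stood at 122 and 69.4, and at 94.8 and 72.1 (-0.54, SE 0.12, edgeR adjusted p = 0.00215). Plxnd1 stood at 62.3 and 43.9, and at 62.8 and 39.2 (-0.50, SE 0.11, edgeR adjusted p = 0.00294). The groups in which these genes peak, stroma and fibroblasts, had the lowest shares of CD24+ cells among the 5 groups. The part of these shares was not tested either.

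The call of each of the 5 was lost when sums were taken per mouse, group and status and the status was compared within groups. The log2 change was then -0.20 for Sema3d (edgeR adjusted p = 0.975), -0.13 for Nrp2 (0.980), -0.16 for Nrp1 (0.974), 0.24 for Sema3c (0.933) and 0.07 for Plxnd1 (1.00). Without the mouse block they missed the threshold too, with edgeR adjusted p from 0.0562 to 0.567. In both settings nearly all genes called in the pooled comparison lost their call, with counts in the closing section. The losses are thus not particular to these members. By DESeq2 the calls of Nrp2 (adjusted p = 0.128), Sema3c (0.0742) and Plxnd1 (0.184) were lost, and at 2000 UMIs per cell those of Sema3c (edgeR adjusted p = 0.249) and Plxnd1 (0.360). With a stricter marker rule, Nrp2 (edgeR adjusted p = 0.0603) and Sema3c (0.0672) missed the threshold. The other 5 members did not pass in the pooled comparison, among them Sema3e (-0.31, SE 0.14, edgeR adjusted p = 0.155).

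Within osteoblasts Nrp2 was lower in CD24+ cells. In this group 130 of 11171 genes passed (1.16%), and of 8 members tested Nrp2 alone did. It stood at 802 CPM in 633 CD24- and 439 in 173 CD24+ cells of the young mouse, and at 1044 in 368 and 635 in 70 cells of the old mouse. The log2 change was -0.82 (SE 0.11, edgeR adjusted p = 0.00252), and in the single mice it was -0.87 (young) and -0.78 (old), opposite in sign to the pooled value. With sums per osteocalcin part it was -0.82 (edgeR adjusted p = 0.00889), and CD24+ cells had less Nrp2 than CD24- cells of the same library in all 6 pairs of parts. Nrp2 missed the threshold without the mouse block, as every gene of this group did (-0.82, edgeR adjusted p = 0.998). At 2000 UMIs per cell Nrp2 missed it too (-0.71, edgeR adjusted p = 0.0748). The 173 young CD24+ cells held 1763442 UMIs and the 633 CD24- cells 4423400. In the old mouse 70 and 368 cells held 1174855 and 5753742, so CD24+ cells were deeper in each mouse.

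The lowest osteocalcin part of the old library had the widest gap, with Nrp2 at 1027 in 129 CD24- and 327 CPM in 25 CD24+ cells. The corresponding young cells had 719 and 418. In the middle part the values were 1049 and 786 (old) and 631 and 347 (young), and in the highest 1051 and 794 (old) and 1046 and 588 (young).

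Other members did not pass among osteoblasts. Sema3c had the largest estimate, with 7.23 and 17.0 CPM in CD24- and CD24+ cells of the young mouse and 1.91 and 6.81 in the old one (1.38, SE 0.40, edgeR adjusted p = 0.156). Sema3b stood at 16.7 and 11.9, and at 48.3 and 30.6 (-0.63, SE 0.22, edgeR adjusted p = 0.292). Sema3d, which was higher in the pooled comparison, had -0.20 (SE 0.17, edgeR adjusted p = 0.811). Without the filter on low counts Sema3c passed (1.36, edgeR adjusted p = 0.0397).

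In stroma 59 of 12546 genes passed (0.47%) and in fibroblasts 7 of 12290 (0.057%), with 0 members among them by edgeR and 0 by DESeq2 (10 members in fibroblasts and 3 in stroma had an adjusted p). At an unadjusted p under 0.05 there was 1 of 5 tested members in stroma, Sema3c, on 7 and 3 UMIs in CD24+ cells, and 2 of 10 in fibroblasts, Sema3e and Nrp1. Sema3e in fibroblasts stood at 92.8 in CD24- and 104 in CD24+ cells of the young mouse and at 98.7 and 144 CPM in the old one (0.36, SE 0.16, edgeR adjusted p = 0.692). Stromal Nrp1 stood at 565 and 510, and at 573 and 538 (-0.12, SE 0.10, edgeR adjusted p = 1.00), and stromal Plxnd1 had 0.03 (SE 0.14). Tendon, with 19, and cartilage, with 15 CD24+ cells in the old mouse, had too few cells for a test.

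Whether the CD24 change of a member differed between groups was tested as well, a step added after seeing the data. It passed for 0 of the 10 members in each pair of the 3 groups, where 0.102% (osteoblast against stroma), 0.425% (osteoblast against fibroblast) and 0.0315% (stroma against fibroblast) of 12697 genes did. For Nrp2 the osteoblast change was lower than the stromal one by a log2 difference of -0.89 (edgeR adjusted p = 0.314, unadjusted p = 0.00261) and than the fibroblast one by -1.08 (edgeR adjusted p = 0.118, unadjusted p = 0.00149).

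**Figure D4:**
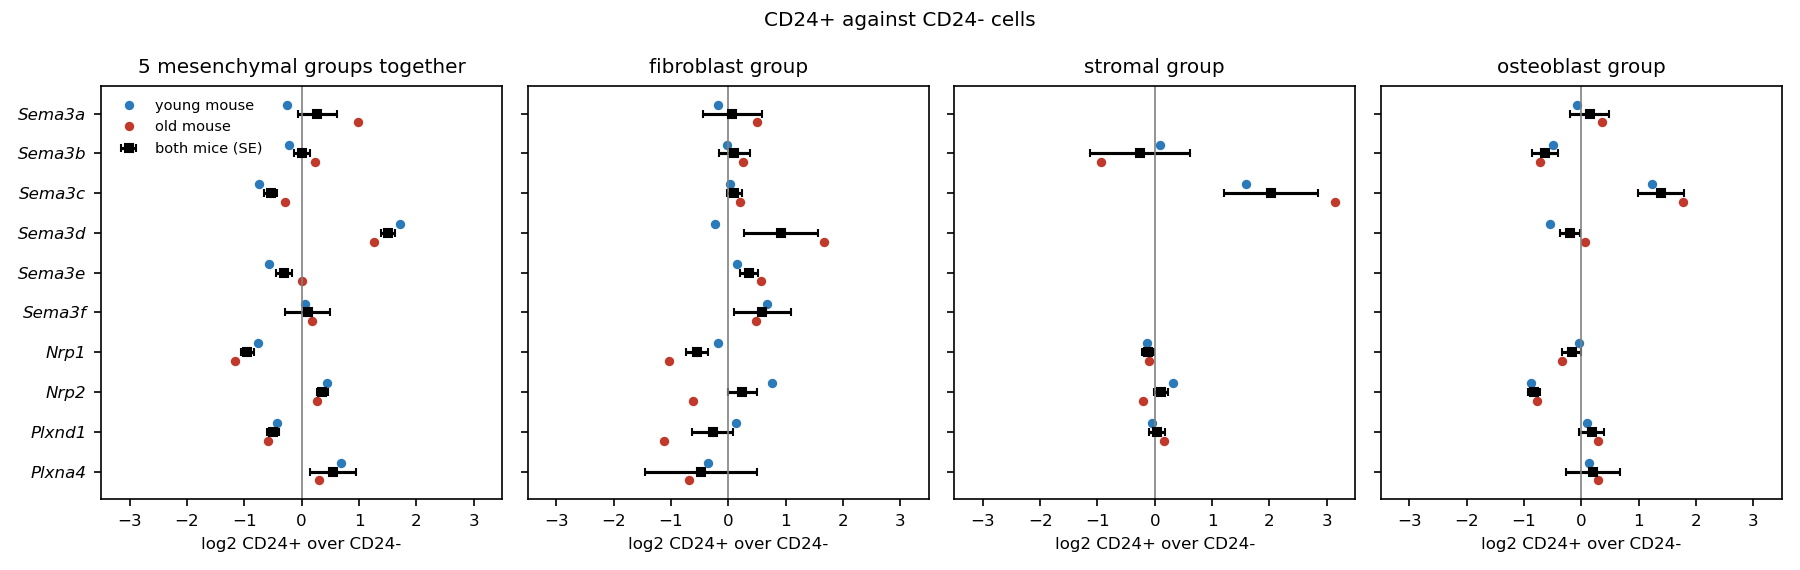
Log2 change of CD24+ over CD24- cells (horizontal axis) of each tested member over the 5 groups together and in 3 single groups; squares with bars are the fit over both mice with its SE, and circles are the young (blue) and old (red) mouse. Nrp2 lies above 0 in the pooled panel and below 0 in osteoblasts, in both mice.

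In the pathway lists of the pooled comparison, all 5 tested VEGF genes passed as lower in CD24+ cells, as did 6.68% of 14746 genes. The largest changes were those of Vegfd (log2 change -1.21, edgeR adjusted p = 0.00032), Vegfc (-0.61, 0.000417) and Pgf (-0.60, 0.00472). The list median was -0.60 against 0.00 over all genes. Vegfa, Vegfb, Vegfc and Pgf were highest in stroma and Vegfd in fibroblasts, the groups with the lowest CD24+ shares of the 5. The part of these shares was not tested. Of 16 tested co-receptors and mediators Rras, a small GTPase bound by plexins, was lower (-0.52, edgeR adjusted p = 0.00087). Of 6 tested class 3 and plexin genes Plxna2 was lower (-0.45, edgeR adjusted p = 0.0208), and of 12 tested semaphorins of other classes Sema4d (1.06, edgeR adjusted p = 0.0169) and Sema5a (0.43, edgeR adjusted p = 0.0436) were higher. Within osteoblasts Pgf, a VEGF family ligand, was lower (-1.71, edgeR adjusted p = 0.0239). Mical3, of a family of enzymes that act on actin (-0.80, edgeR adjusted p = 0.0147), and Sema7a, a membrane-anchored semaphorin (-0.74, edgeR adjusted p = 0.0475), were lower too. Compared within groups, where hardly any gene was called, Vegfa, Vegfb, Vegfc, Plxna2, Rras and Sema5a missed the threshold (edgeR adjusted p from 0.84 to 1.00). Vegfd, Pgf and Sema4d had too few counts to be tested there. In single groups, Sema4d had a log2 change of -0.61 in osteoblasts, opposite in sign to its pooled value. Beside its osteoblast change given above, Pgf had 0.28 in stroma and -0.20 in fibroblasts, and Vegfd had -0.23 and -0.72. In fibroblasts, stroma and osteoblasts Vegfc had 0.72, 0.25 and 0.13, Vegfa -0.45, -0.14 and -0.21, and Vegfb -0.11, 0.13 and -0.08. None of these single-group changes passed the threshold. By DESeq2 the calls of Pgf (adjusted p = 0.268) and Sema4d (0.229) in the pooled comparison and of Sema7a (0.556) and Mical3 (0.253) in osteoblasts were lost. Without predicted doublets the osteoblast calls of Pgf (edgeR adjusted p = 0.0857), Sema7a (0.122) and Mical3 (0.0595) were lost too.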

How the data were processed

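The values were raw UMI counts deposited by the authors, 1 matrix per mouse with 32285 genes and 1 antibody. Per the file headers the matrices were written by Cell Ranger 6.1.1, and the processing notes list Seurat 4.0, R 4.0.3 and the build mm10. The labels give the ages but no sex of the 2 mice. The 10 members, the marker lists, the pathway lists and the genes Scg3 and Islr2 were chosen with earlier results of these data known.

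Kept barcodes had at least 200 genes and at most 20% mitochondrial UMIs. Doublets stayed in, and removal of 269 young and 57 old cells called by Scrublet (scanpy 1.11.5) was an alternative. A cell joined the marker list with the highest mean scaled expression if 3 of its markers had a UMI and the mean was 0.25 above the next, and 2667 young and 1405 old cells stayed unassigned. CD24 status was set by the Otsu threshold per library, and 975 young and 388 old cells lay within 1.5-fold of it. Thinning left out 770 young and 496 old cells under 2000 UMIs. Tests used edgeR 4.0.16 in R 4.3.3 with TMM factors and filterByExpr, two-sided, with the mouse as a block since a CD24+ and a CD24- sum were taken from each animal, and DESeq2 1.42.0 was an alternative. The script was tested on simulated data. Intervals used SciPy 1.17.1 and NumPy 2.4.6. The named genes were the members, the listed genes past the threshold with the largest change, and the 3 genes most alike. Promoters came from a RefSeq table.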

Additional observations from a re-analysis of the deposited data

How the results depend on the processing

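Across 6 alternatives in each library (cell limits, doublets, group rules, thinning, cell means), 7 members kept their highest group in 12 of 12 cases, Sema3f in 11, and Sema3a and Plxna4 in 10. The cause of the changes below was not tested unless stated. Genes past 2-fold between the ages numbered 606 in fibroblasts, 638 in stroma, 860 in osteoblasts, 488 in tendon and 1099 in cartilage. A minimum of 50 UMIs, which admits fewer genes, gave 299, 341, 465, 197 and 476, and thinning to 2000 UMIs gave 558 in osteoblasts and 648 in cartilage. Removing doublets turned the log2 ratio of Sema3c in stroma from -1.31 to 0.24.

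Genes called between CD24+ and CD24- cells numbered 2059 over the 5 groups together. They became 1132 with 4 markers and a gap of 0.5, 990 after thinning, 245 with CD24+ as the top 15% of antibody counts within each group and library, 73 without the mouse block, 795 by DESeq2 and 2 within groups. In fibroblasts 7 became 127 without doublets, 3 with 4 markers, 80 with 2 markers and no gap, 31 after thinning, 326 with the top 15%, 157 without the filter on low counts, 1 without the block and 45 by DESeq2. In stroma 59 became 115 with 2 markers, 7 after thinning, 90 with RLE factors, 0 without the block (538 genes at an unadjusted p under 0.05 in edgeR) and 15 by DESeq2. In osteoblasts 130 became 27 with a mitochondrial limit of 10%, 36 without doublets, 83 with 4 markers, 198 with 2, 14 after thinning, 206 with the top 15%, 340 without the filter, 0 without the block (435 genes at an unadjusted p under 0.05 in edgeR), 25 by DESeq2 and 69 within osteocalcin parts, an alternative added after seeing the data.

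With the top 15% in the pooled groups, the log2 change became -0.32 for Nrp2 (edgeR adjusted p = 0.00456), -0.0017 for Sema3d, 0.43 for Sema3e (edgeR adjusted p = 0.0136), 0.16 for Sema3c, 0.054 for Rras, 0.27 for Vegfc, 0.047 for Pgf, -0.39 for Sema4d and 0.020 for Vegfb. Nrp1 (-0.11, edgeR adjusted p = 0.377) and Plxnd1 (-0.09, 0.662) missed the threshold there, and fibroblast Sema3e passed it (0.40, edgeR adjusted p = 0.0160). With a mitochondrial limit of 10% stromal Sema3c passed (2.73, edgeR adjusted p = 0.0321). Within groups, with mouse and group as a joint block, it became -0.13 for Nrp2, -0.20 for Sema3d, 0.24 for Sema3c, 0.068 for Plxnd1, 0.0047 for Rras and 0.26 for Vegfc. Sema5a lay from -0.0068 to 0.87 with 1 mouse left out. Without the replicate block, Nrp2 was 0.34 in the pooled groups and -0.82 in osteoblasts. The osteoblast Nrp2 change lay from -0.90 to -0.71 over all alternatives run. With 2 mice and few antibody-high cells, members under about 10 CPM had wide errors.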
